A study of Mus musculus with 3 samples.

Results

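The myogenic regulatory factors (MRFs), the E proteins and the Id proteins are the activators, dimer partners and inhibitors of basic helix-loop-helix (bHLH) control of muscle genes, and their RNA was measured in 3 lines of cultured mouse myoblasts. The members were chosen by name: Myod1, Myf5, Myog and Myf6 as activators, Tcf3, Tcf4 and Tcf12 as partners, and Id1, Id2 and Id3 as inhibitors. These 10 genes were all found among the 35562 genes to which the listed transcripts could be matched. Lines 66, 67 and 72 all carried the genotype Dmdmdx; Pax7-nGFP, in which Dmd holds the dystrophin mutation of the mdx mouse and a green fluorescent reporter marks nuclei of Pax7-expressing cells, and CRISPR/Cas9 editing had been used to correct the mdx mutation in each. The edit restores the reading frame by exon skipping, so it does not return the wild-type transcript. Edited induced pluripotent stem cells, for which the study checked the edit in 1 clone, had been injected into blastocysts with the alleles Pax7Cre/ERT2 and Rosa26lsl-DTA, and the lines were grown from reporter-positive cells sorted from muscle of the resulting chimeras, which the study harvested some weeks after birth. The study also reports only the edited gene in every chimera-derived myoblast line it examined, though its main text does not name those lines. The labels do not give for each line the age of the chimera, whether it had received tamoxifen, which makes the host's Pax7-expressing cells produce diphtheria toxin A, or whether lines came from separate animals. The lines thus formed 1 group of 3 libraries (n = 3), with no control library analysed here, and the spread between them may be in part technical.

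MRFs bind DNA as heterodimers with E proteins, each partner contacting one side of an E-box (CANNTG), and so switch on muscle genes. Myf5 and Myod1 mark committed myoblasts, Myog drives their differentiation, and Myf6 is best known from mature fibres. Id proteins have the helix-loop-helix dimerization surface but lack the basic DNA-binding region, so an E protein held by an Id cannot bind an E-box with an MRF.

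Total estimated counts, that is reads shared out among the transcripts they fit, were between 66972426 and 73274315 per library, and levels are given in transcripts per 1000000 (TPM), which corrects for transcript length. All 6 myoblast markers had means of at least 70.3 TPM, with Pax7 at 136, 143 and 154 TPM in lines 66, 67 and 72. Of the 6 fibroblast markers, Lum and Dpt had no count and the summed level was between 3.88 and 6.29 TPM, and the 6 endothelial markers summed to between 7.08 and 9.71 TPM. The 6 immune markers summed to between 4.74 and 29.4 TPM, mostly from Laptm5 (25.5, 1.77 and 10.9 TPM in lines 66, 67 and 72) and Cd68 (3.90, 2.92 and 4.23 TPM), while Cd52 and Tyrobp had no count. The 6 pluripotency markers summed to between 9.99 and 11.6 TPM, of which Pou5f1 gave a mean of 10.3 TPM. A list of 6 cell-cycle genes summed to 750.0, 975 and 962 TPM in lines 66, 67 and 72, lowest in line 66.

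The family resemblance that underlies the comparison can be read in the coding sequence. Below are the most similar 90-base windows of the 4 activators, taken from the coding sequence of their single listed transcripts (GENCODE M21, GRCm38, sense strand), with bases shared by all 4 in capitals.
Myod1 window: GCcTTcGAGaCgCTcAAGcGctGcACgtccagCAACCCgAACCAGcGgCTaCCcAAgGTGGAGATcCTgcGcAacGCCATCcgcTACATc
Myf5 window: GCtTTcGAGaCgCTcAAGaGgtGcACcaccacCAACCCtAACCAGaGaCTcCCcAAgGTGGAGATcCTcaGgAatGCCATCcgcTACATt
Myog window: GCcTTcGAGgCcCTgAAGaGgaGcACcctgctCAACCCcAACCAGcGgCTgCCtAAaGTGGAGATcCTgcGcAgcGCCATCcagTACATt
Myf6 window: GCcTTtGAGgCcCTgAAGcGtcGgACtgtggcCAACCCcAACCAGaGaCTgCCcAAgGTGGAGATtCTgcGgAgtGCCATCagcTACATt
In these windows 59 of 90 bases were the same in all 4 genes, and the pairs were between 74.4% (Myf5 and Myog, Myod1 and Myf6) and 83.3% (Myod1 and Myf5) identical. The Id genes are aligned in the same way, with bases shared by all 3 in capitals.
Id1 window: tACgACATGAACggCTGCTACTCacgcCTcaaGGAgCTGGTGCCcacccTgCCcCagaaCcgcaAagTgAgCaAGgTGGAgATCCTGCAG
Id2 window: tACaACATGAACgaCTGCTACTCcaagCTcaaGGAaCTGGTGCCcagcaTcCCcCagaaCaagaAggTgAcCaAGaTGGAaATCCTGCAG
Id3 window: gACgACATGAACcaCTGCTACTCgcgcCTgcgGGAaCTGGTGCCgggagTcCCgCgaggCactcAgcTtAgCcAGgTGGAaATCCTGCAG
Here 56 of 90 bases were common to the 3 genes, and Id1 and Id2 (81.1% identical) were closer to each other than either was to Id3 (68.9% and 70.0%). The likeness did not carry over to stretches of the length that read assignment works with. All 31-base words of 8 members occurred in no other gene, and for Tcf4 and Tcf12 the share of such words was 99.4% and 99.3%.

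Myod1, the MRF that can convert other cells to muscle, was the most abundant of the 10 genes. The gene (ENSMUSG00000009471.4) lies at chr7:46376474-46379099 on the plus strand of GRCm38. It was measured at 791 TPM in line 66, 702 TPM in line 67 and 579 TPM in line 72, a mean of 690.3 ± 107 (SD, n = 3), above 99.2% of detected genes. Line 66 was highest and line 72 lowest, 1.37-fold apart, and no value of any other member reached the lowest Myod1 value.

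Myog, the activator of differentiation, varied most between lines among the members above 10 TPM. The gene lies at chr1:134289989-134292548 (plus strand). Its level was 168 TPM in line 66, 222 TPM in line 67 and 310.4 TPM in line 72, with a mean of 234 ± 71.7 (SD, n = 3) and estimated counts of 12382, 15214 and 21580. The order was the reverse of that of Myod1, so that Myod1 exceeded Myog 4.70-fold in line 66, 3.16-fold in line 67 and 1.86-fold in line 72. In RNA of a whole culture, fewer cells expressing Myog and less Myog RNA per cell cannot be told apart.

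Myf5, the earliest MRF of the embryo, and Myf6 are neighbours on chromosome 10, at chr10:107482908-107486134 and chr10:107492853-107494737 (both minus strand). Myf5 stood at 97.2, 118 and 113 TPM in lines 66, 67 and 72 (mean 109 ± 10.9, SD, n = 3), 5.10 to 8.14 times below Myod1. Myf6 was measured at 5.84, 3.95 and 2.79 TPM (mean 4.19 ± 1.54, SD, n = 3), the only member under 10 TPM. These levels rested on 270, 166 and 121 counts, with exact Poisson 95% intervals of 239 to 304, 142 to 193 and 100.4 to 145, which cover counting error only. The interval of line 66 did not overlap those of lines 67 and 72.

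**Figure D1:**
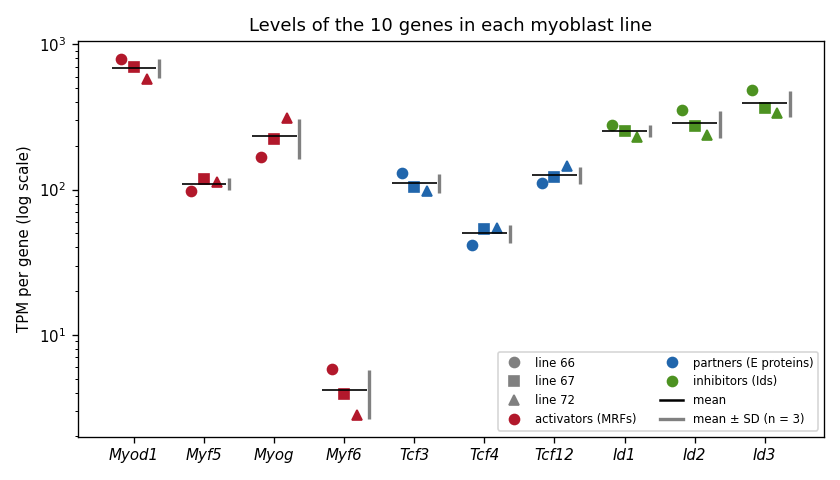
Level of each gene in TPM (log scale) in lines 66 (circle), 67 (square) and 72 (triangle), with the mean (black line) and mean ± SD over the 3 lines (grey bar). Myod1 stood highest at 579 to 791 TPM, the 3 Ids lay between 230.3 and 484 TPM, the 3 E proteins between 41.8 and 144 TPM, and Myf6 between 2.79 and 5.84 TPM.

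Of the E proteins, Tcf12 (also known as HEB) and Tcf3 (E2A) were at like levels and Tcf4 (E2-2) was lower. Tcf12, at chr9:71842688-72111871 (minus strand), was measured at 111, 122 and 144 TPM in lines 66, 67 and 72, with a mean of 126 ± 17.0 (SD, n = 3). Tcf3, at chr10:80409514-80433647 (minus strand), was measured at 129, 104 and 98.5 TPM, with a mean of 111 ± 16.5. Tcf4 was measured at 41.8, 53.6 and 54.8 TPM, with a mean of 50.1 ± 7.16. Tcf3 was above Tcf12 in line 66 (1.17-fold) and below it in lines 67 (0.853) and 72 (0.682), whereas Tcf4 was the lowest of the partners in each line.

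Unlike the MRFs, which have 1 listed transcript each, the E protein genes are read into many: 14 transcripts were listed for Tcf3, 62 for Tcf4 and 21 for Tcf12. Transcripts of a gene share most of their sequence, so their levels are estimates of how reads were split, and for them no counting interval is given. Tcf3 encodes the E proteins E12 and E47 through mutually exclusive exons, each of which holds the DNA-binding and dimerization region, and these exons are shown because the choice between them sets which protein pairs with the MRFs. The E47 exon lies at chr10:80410398-80410624 and the E12 exon at chr10:80412827-80413062 (GRCm38, minus strand). Capitals mark bases that differ between them or, in the longer one, have no counterpart.
Tcf3 E47 exon: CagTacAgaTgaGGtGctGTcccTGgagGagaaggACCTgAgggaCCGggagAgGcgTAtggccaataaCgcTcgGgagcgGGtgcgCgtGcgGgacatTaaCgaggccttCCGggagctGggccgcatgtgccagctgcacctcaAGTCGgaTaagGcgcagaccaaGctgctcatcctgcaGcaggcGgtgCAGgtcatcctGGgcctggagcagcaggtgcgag
Tcf3 E12 exon: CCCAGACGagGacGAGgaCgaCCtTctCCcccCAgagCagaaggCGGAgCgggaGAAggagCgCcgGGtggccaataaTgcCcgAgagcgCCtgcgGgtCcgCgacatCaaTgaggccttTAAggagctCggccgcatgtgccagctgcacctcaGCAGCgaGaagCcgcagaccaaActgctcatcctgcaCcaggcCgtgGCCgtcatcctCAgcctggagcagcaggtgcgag
The exons are 227 and 236 bases long and were identical at 174 of 227 aligned bases (76.7%). Transcripts with the E12 exon made up 28.6%, 25.6% and 26.4% of the Tcf3 TPM that reached either exon in lines 66, 67 and 72, a mean of 26.9% ± 1.54 (SD, n = 3). E47 was thus the major form in each line, and the share of E12 varied little. Single transcripts varied far more: of 11 Tcf3 transcripts that averaged 1 TPM or more, 6 differed over 2-fold between lines, up to 154-fold for Tcf3-208 (1.46, 0.021 and 3.24 TPM). Its value in line 67 rested on 3.31 estimated counts, close to the limit of 3 that a count of 0 allows. The size of that fold is therefore uncertain. By the same rule 3 of 12 Tcf12 and 1 of 8 Tcf4 transcripts differed over 2-fold, and 0 in each Id gene. The share over all transcripts at that level was not counted. Tcf3-206 and Tcf3-210, which both carry the E12 exon, changed places, with 18.03, 10.5 and 6.69 TPM for the former and 13.5, 4.77 and 15.2 TPM for the latter.

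Tcf12 has an exon of 72 bases that some transcripts skip and that adds a short stretch to the protein ahead of the bHLH domain. It lies at chr9:71868999-71869070 (GRCm38, minus strand) and is shown because its use distinguishes the Tcf12 forms that were measured.
Tcf12 cassette exon: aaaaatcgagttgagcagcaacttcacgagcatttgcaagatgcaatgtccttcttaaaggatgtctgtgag
Transcripts with this exon made up 18.5%, 15.8% and 20.02% of the TPM of coding Tcf12 transcripts that hold both neighbouring exons, in lines 66, 67 and 72, a mean of 18.1% ± 2.12 (SD, n = 3). Transcripts that begin inside the gene (Tcf12-207 and Tcf12-215) differed more between lines, with 9.54, 8.12 and 28.6 TPM in lines 66, 67 and 72, or 10.9%, 8.85% and 24.3% of the TPM of coding transcripts with the bHLH exon. Line 72 stood apart here on TPM, and also as a share of estimated counts, at 16.7% against 6.03% and 4.63%. The cassette and internal-start shares overlap, since Tcf12-207 (2.59, 1.96 and 12.4 TPM) also holds the cassette exon and Tcf12-215 skips it. The order of the lines in the cassette share thus depends in part on these transcripts. Of the remaining transcripts with the exon, Tcf12-216 and Tcf12-218 were lowest in line 72 and Tcf12-202 (2.95, 3.01 and 3.31 TPM) was highest there. Tcf12-221 gave the largest share of the gene, at 33.1% to 37.1% of all Tcf12 TPM.

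Tcf4 lies at chr18:69343356-69689079 (plus strand). Of its 62 transcripts, 29 had no count in any line and 8 averaged 1 TPM or more, and Tcf4-202 alone held 47.7% to 52.0% of the gene's TPM.

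**Figure D2:**
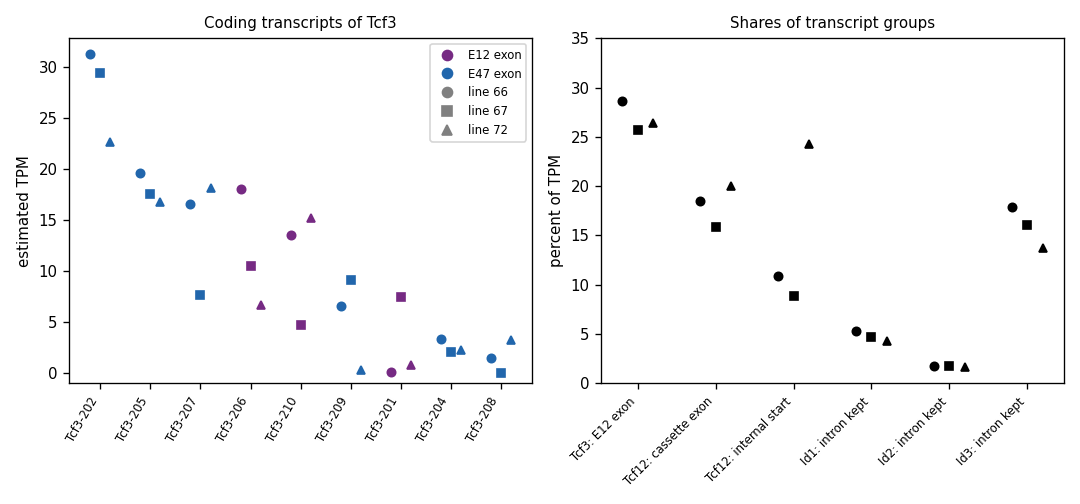
Left, TPM of the coding Tcf3 transcripts by line, with E12-exon transcripts in purple and E47-exon transcripts in blue; right, percent of TPM in 6 transcript groups by line, relative to the gene's transcripts that the group is part of. Single Tcf3 transcripts changed places between lines, while the E12 exon share lay between 25.6% and 28.6%, and the Tcf12 share from the internal start was highest in line 72 (24.3%).

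All 3 Id genes were abundant, and the ranges of Id1 and Id2 overlapped. Id3, at chr4:136143497-136145755 (plus strand), was measured at 484 TPM in line 66, 364 TPM in line 67 and 337 TPM in line 72, with a mean of 395 ± 78.5 (SD, n = 3). Id2, at chr12:25093799-25097140 (minus strand), was measured at 351, 273 and 236 TPM, with a mean of 287 ± 58.7. Id1, at chr2:152736251-152737410 (plus strand), was measured at 279, 253 and 230.3 TPM, with a mean of 254 ± 24.4. In each of these genes line 66 was highest and line 72 lowest, by 1.44-fold, 1.49-fold and 1.21-fold. The part of Id3 stayed close: Id3 was 43.5%, 40.9% and 41.9% of the Id sum in lines 66, 67 and 72, and Id3 exceeded Id2 by 1.33-fold to 1.43-fold. Ratios to Id1 moved more, at 1.26, 1.08 and 1.02 for Id2 and 1.74, 1.44 and 1.46 for Id3.

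Part of the Id RNA was assigned to transcripts that keep an intron. For Id1 and Id2 the border of the first exon is shown for the spliced and the intron-keeping transcript, with 20 bases on each side and the bases after the border in capitals (sense strand).
Id1 spliced junction: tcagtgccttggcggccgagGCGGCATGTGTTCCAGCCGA
Id1 retained intron: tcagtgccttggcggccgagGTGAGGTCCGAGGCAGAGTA
Id2 spliced junction: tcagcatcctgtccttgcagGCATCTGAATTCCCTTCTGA
Id2 retained intron: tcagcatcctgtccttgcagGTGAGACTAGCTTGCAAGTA
The kept introns are 226 bases long in Id1 and 288 in Id2, and the kept sequence opens with the GT of a splice donor. Id1-202 took 5.35%, 4.68% and 4.27% of Id1 TPM in lines 66, 67 and 72, and Id2-203 took 1.73%, 1.75% and 1.65% of Id2 TPM. Id3-203, the corresponding transcript of Id3, took the largest share of these genes, at 17.8%, 16.1% and 13.7% of TPM. As a share of estimated counts it was lower, at 10.7%, 9.60% and 8.21%, and still the largest of the 3 genes. In Id1 and Id3 the share was highest in line 66 and lowest in line 72, as was the level of the gene, and for Id2 it was nearly equal in the lines.

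Summed by class on TPM, activators and inhibitors both stood above the partners in each line, and the order of activators and inhibitors differed between lines. The activators summed to 1062, 1046 and 1005 TPM in lines 66, 67 and 72 (mean 1038 ± 29.4, SD, n = 3), the partners to 282, 279.8 and 298 TPM (287 ± 9.64), and the inhibitors to 1114, 889.9 and 803 TPM (936 ± 161). Activators exceeded partners in 3 of 3 lines, by 3.62-fold on average, a log2 ratio of 1.86 ± 0.09 (SD, n = 3; exact two-sided sign-flip permutation test p = 0.25, adjusted over 3 ratios p = 0.375). Inhibitors also exceeded partners in 3 of 3 lines, by 3.24-fold, a log2 ratio of 1.69 ± 0.28 (exact p = 0.25, adjusted p = 0.375). Without a correction for length (CPM, counts scaled to library size) the log2 ratios to partners were 1.03 ± 0.13 for activators (exact p = 0.25) and 0.00 ± 0.30 for inhibitors (exact p = 1). With 3 lines an exact test cannot give a p below 0.25, so neither difference could pass a threshold of 0.05.

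Inhibitors against activators gave log2 ratios of 0.07 in line 66, -0.23 in line 67 and -0.32 in line 72, a mean of -0.16 ± 0.21 (SD, n = 3; exact p = 0.5, adjusted p = 0.5). The sign thus differed between lines on TPM, and the mean was smaller than the spread. It did not differ when estimated counts were divided by annotated transcript length, with a mean of -0.38 ± 0.20 (SD, n = 3; exact p = 0.25), or when coding transcripts alone were summed, with -0.28 ± 0.19 (exact p = 0.25): inhibitors were then below activators in 3 of 3 lines. In these classes the sum of coding transcripts left out only Id3-203 (86.4, 58.4 and 46.1 TPM in lines 66, 67 and 72) and Id3-202. The intron-keeping Id1-202 and Id2-203 are annotated as coding and stayed in. On CPM the mean was -1.03 ± 0.18 (exact p = 0.25). Without line 66 the mean was -0.28 ± 0.06 (SD over 2 lines).

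The class sums rested heavily on Myod1. Without Myod1, activators stood 0.25 ± 0.29 above partners on the log2 scale (SD, n = 3; exact p = 0.5), and inhibitors stood 1.44 ± 0.57 above activators (exact p = 0.25). With the mean log2 level of each class in place of its sum, activators were 0.11 above partners and inhibitors 1.66 above activators. Those means gave the low Myf6 the same weight as each other activator, and without Myf6 they were 1.53 and 0.24. Without Myod1 the mean log2 level of the activators was below that of the partners, a difference of -0.83 ± 0.03 (SD, n = 3; exact p = 0.25).

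Within the activators, the sum hid a shift in make-up. Myod1 was 74.5%, 67.1% and 57.6% of the activator sum in lines 66, 67 and 72, while Myog was 15.8%, 21.3% and 30.9%. The sum itself differed by 1.06-fold between lines, less than either gene. Myf5 held 9.15% to 11.3% and Myf6 0.278% to 0.549%. In the partners, Tcf3 was 45.9%, 37.2% and 33.1% of the sum and Tcf12 39.3%, 43.6% and 48.5%, and the sum again differed by 1.06-fold. The inhibitor sum differed by 1.39-fold between lines.

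**Figure D3:**
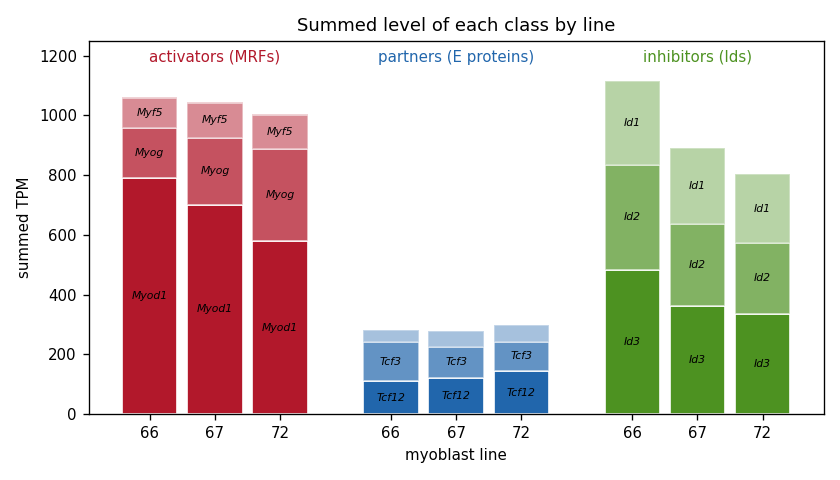
Summed TPM of the activators (red), partners (blue) and inhibitors (green) in lines 66, 67 and 72, each bar divided into its genes; the unlabelled top segments are Tcf4 in the partners and, too thin to see, Myf6 in the activators. The activator sum lay between 1005 and 1062 TPM and the partner sum between 279.8 and 298 TPM, while the inhibitor sum lay between 803 and 1114 TPM and was highest in line 66.

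By mean level the genes were ordered Myod1, Id3, Id2, Id1, Myog, Tcf12, Tcf3, Myf5, Tcf4 and Myf6. Neighbours in this order were separate, with no overlap of their ranges over the lines, for Myod1 over Id3, Myog over Tcf12, Myf5 over Tcf4 and Tcf4 over Myf6. The ranges of Id3, Id2, Id1 and Myog overlapped from neighbour to neighbour, as did those of Tcf12, Tcf3 and Myf5. These overlapping neighbours partly changed places with the length used. The deposited effective length of the leading transcript exceeded its annotated length in 4 members, Myod1 (by a factor of 1.11), Myog (1.04), Tcf3 (1.23) and Id3 (1.08), and was 0.699 of it in Id2. With counts per annotated length, the order was Myod1, Id3, Myog, Id1, Id2, Tcf3, Tcf12, Myf5, Tcf4 and Myf6.

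Differences between lines were mostly under 1.5-fold. Each line is 1 library, so these differences have no replicate check and no p-value. Of the 9 members that averaged 10 TPM or more, 0 differed over 2-fold between any pair of lines, where 2.47% of the 8428 genes at that level did. At over 1.5-fold the count was 1 of 9 (Myog, 1.84-fold) against 9.79% of genes. Myf6, with a mean from 1 to under 10 TPM, differed 2.09-fold, where 16.9% of genes in that range differed over 2-fold. Over all 10 members, 1 differed over 2-fold and 2 over 1.5-fold (Myog and Myf6), against 7.19% and 19.7% of 12528 genes that averaged 1 TPM or more. The median gene differed by 1.18-fold, and the fold of Myog was larger than that of 96.3% of genes, that of Id2 89.7%, that of Id3 87.4% and that of Myod1 82.3%. The other 5 lay between 58.1% (Id1) and 76.9% (Tcf3), so each of the 9 differed more than the median gene. With estimated counts scaled by TMM or by DESeq2 size factors in place of TPM, Myog differed by 1.76-fold and 1.77-fold and Id2 by 1.59-fold and 1.58-fold, so Id2 lay on either side of 1.5-fold by scaling.

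The direction of these differences split the members. Highest in line 66 and lowest in line 72 were 5 of 9 (Myod1, Tcf3, Id1, Id2 and Id3), a pattern found in 11.7% of genes at that level. Highest in line 72 and lowest in line 66 were 3 of 9 (Myog, Tcf4 and Tcf12), a pattern found in 29.4% of genes. Myf5 was the remaining one, highest in line 67. The immune markers summed to 29.4, 4.74 and 15.2 TPM in lines 66, 67 and 72, with Laptm5 highest in line 66 and Cd68 and Ptprc highest in line 72. The fibroblast sum (4.33, 6.29 and 3.88 TPM) and the endothelial sum (7.67, 9.71 and 7.08 TPM) were highest in line 67, through Thy1 (3.51, 5.80 and 3.26 TPM) and Egfl7 (6.78, 9.27 and 6.14 TPM), while Pdgfra, Dcn, Col1a1, Pecam1, Kdr and Tie1 were each under 1 TPM and lowest in line 67. The cell-cycle sum was lowest in line 66. The part of these lists in the members' values was not tested.

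Genes of chromosome 10 as a whole read higher in line 66, and 3 members lie there. Relative to the mean of the other lines, the median of 427 genes of this chromosome was 0.29 on the log2 scale in line 66, -0.09 in line 67 and -0.19 in line 72. Tcf3 stood 0.35 higher in line 66, and 0.07 higher once the chromosome's median was taken off, so that its difference between lines went from 1.31-fold to 1.06-fold. Myf6 went from 2.09-fold to 1.68-fold and Myf5 from 1.21-fold to 1.45-fold, with Myf5 then 0.54 lower in line 66. The chromosomes of the other 7 members had medians from -0.06 to 0.05, and Myog still differed by 1.76-fold relative to its own.

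**Figure D4:**
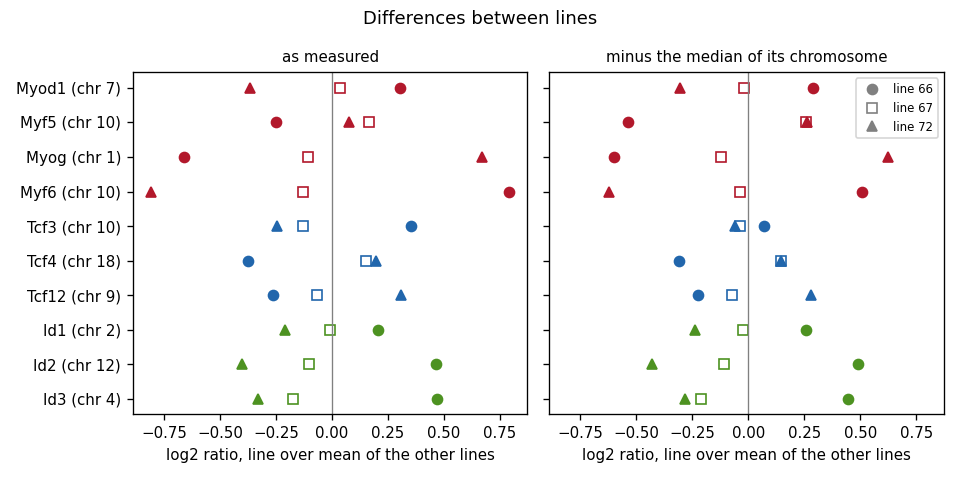
Log2 ratio of each line's TPM to the mean of the other lines for the 10 genes, as measured (left) and after the median of the gene's chromosome was taken off (right); circles are line 66, open squares line 67 and triangles line 72. Myog and the Ids moved in opposite directions in lines 66 and 72 in both panels, while the Tcf3 ratio of line 66 went from 0.35 to 0.07.

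E-boxes were looked for in the 250 bases before RefSeq start sites (GRCm38.p6), which the promoter table gave for 6 members. The windows of Myog and Id2 are shown because, of the members with a window, they differed most between lines in each direction, Myog 1.84-fold and Id2 1.49-fold, with each CANNTG in capitals. They are chr1:134289754-134290003 (plus strand) and chr12:25096093-25096342 (minus strand).
Myog promoter: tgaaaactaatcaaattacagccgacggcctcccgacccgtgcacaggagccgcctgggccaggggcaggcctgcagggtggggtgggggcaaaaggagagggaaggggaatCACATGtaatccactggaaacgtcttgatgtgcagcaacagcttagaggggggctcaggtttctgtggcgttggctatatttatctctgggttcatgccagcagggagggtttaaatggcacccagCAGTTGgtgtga
Id2 promoter: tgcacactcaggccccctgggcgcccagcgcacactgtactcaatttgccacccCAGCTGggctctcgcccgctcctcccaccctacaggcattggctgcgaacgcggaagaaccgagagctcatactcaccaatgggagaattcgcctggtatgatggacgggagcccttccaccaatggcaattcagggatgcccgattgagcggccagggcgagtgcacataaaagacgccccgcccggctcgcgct
Myog held 2 matches, CACATG at -138 and CAGTTG at -12 from the start site, and Id2 held 1, CAGCTG at -196. Tcf3 held 1 match (CACTTG at -54), and Tcf12 held 1 in each window of its 2 outer starts (CAGCTG at -240 and CAAGTG at -149) and 0 in the window of its internal start. Myf5 and Id3 held 0. CANNTG reads the same on both strands, and 66.2% of 32851 promoter windows of the same length held at least 1 match, with a median of 1, while 13.0% held CAGCTG. RefSeq starts are not those of the GENCODE gene bounds given above: the Myog window reaches a few bases into the GENCODE gene, with its -12 match, and the Id2 and Id3 windows lie within the GENCODE bounds. The Tcf12 window with CAAGTG also lies within them. The Tcf12 window with CAGCTG and the Tcf3 window reach into their genes, with their matches outside. A match is a stretch of letters, and binding was not measured.

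Other helix-loop-helix genes were mostly low. Of a list of 20, 4 averaged 10 TPM or more, 5 lay between 1 and 10 TPM and 11 were under 1 TPM. Hes6, which promotes myogenic differentiation, was highest at 278, 259 and 261 TPM in lines 66, 67 and 72, within the range of the Ids. Next were Hes1, a Notch effector (mean 84.5 ± 9.32, SD, n = 3), Scx, a tendon factor (44.9 ± 0.882), and Bhlhe41 (24.0 ± 5.93). The remaining Id gene, Id4, was at 3.72 ± 0.25 TPM, far under Id1, Id2 and Id3. The repressors of MRF activity Msc and Twist1 had 22, 4 and 3 and 129, 5 and 15 counts in lines 66, 67 and 72, and Tcf15 and Neurog2 had none, where 3 counts was taken as the limit that a count of 0 allows. Twist2, from the same list, had more, at 197, 105 and 28 counts (2.97, 1.73 and 0.449 TPM).

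**Figure D5:**
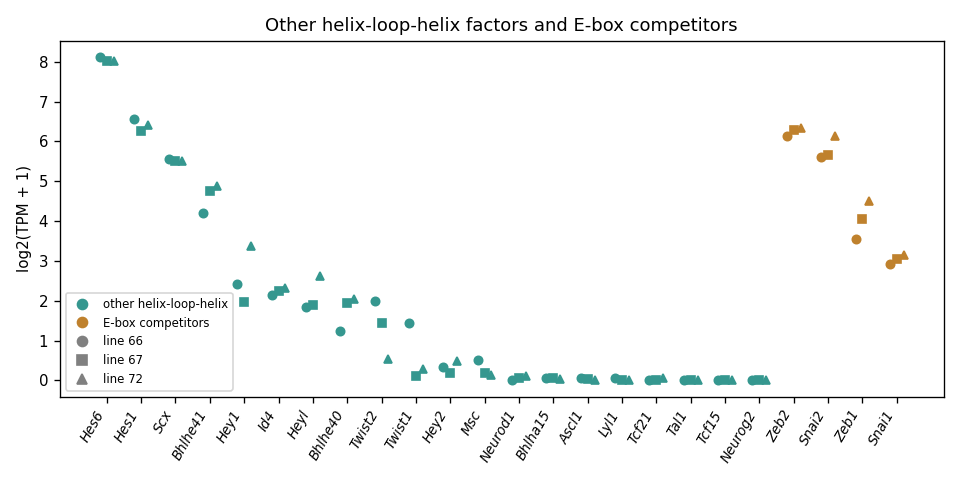
Level as log2(TPM + 1) in lines 66 (circle), 67 (square) and 72 (triangle) of the 20 other helix-loop-helix genes (teal) and the 4 E-box competitors (brown). Hes6 was highest at a mean of 266 TPM, 11 of the 20 were under 1 TPM, and Zeb1 was lowest in line 66 (10.8 TPM) and highest in line 72 (21.8 TPM).

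Of 4 zinc-finger repressors that bind E-box-like sites, 3 averaged 10 TPM or more. Zeb2 had a mean of 75.3 TPM, Snai2 of 55.6 TPM and Snai1 of 7.26 TPM. Zeb1 was measured at 10.8, 15.7 and 21.8 TPM in lines 66, 67 and 72, 2.02-fold apart (2.47% of genes at that level differed over 2-fold), but 1.67-fold with TMM and 1.68-fold with DESeq2 scaling. Of 16 genes for proteins that bind or modify the MRFs, 14 averaged 10 TPM or more, and means ran from 4.96 TPM for Meis1 to 134 TPM for the chromatin remodeller Smarca4. Smarcd3, which encodes the BAF60C subunit recruited with MyoD, was at 101, 102 and 90.1 TPM, and the acetyltransferase gene Ep300 at 24.9 to 25.2 TPM. Only 1 of the 14 differed over 2-fold between lines, Cdkn1c, the p57 cell-cycle inhibitor, at 5.73, 17.0 and 48.0 TPM, against 2.47% of all genes at that level.

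Genes known to be activated by the MRFs were read widely. Of a list of 20, 19 averaged 10 TPM or more, from Cav3 at 15.6 TPM to Mylpf, a fast myosin light chain, at 826 TPM, and creatine kinase Ckm was the remaining one at 6.90 TPM. The list summed to 4302, 5126 and 5918 TPM in lines 66, 67 and 72. Of the 19, 5 differed over 2-fold (Mymx, Mef2c, Actc1, Myl1 and Casq2; 2.47% of all genes) and 11 over 1.5-fold (9.79%), and the median fold was 1.55. With counts scaled by TMM or by DESeq2 size factors, Actc1 and Myl1 fell under 2-fold, which left 3 of 19 (2.34% and 2.35% of genes), and 10 of 19 were over 1.5-fold (8.82% and 8.83%). Highest in line 72 and lowest in line 66, as Myog was, were 13 of 19, against 29.4% of all genes at that level. The reverse order was seen in 2 of 19, against 11.7% of genes: Chrnb1 (221, 184 and 168 TPM) and Chrnd (119, 111 and 106 TPM). The fusion gene Mymx stood at 11.5, 18.3 and 27.4 TPM and Mef2c at 19.9, 39.9 and 48.8 TPM, whereas the acetylcholine receptor gene Chrna1 (515, 536 and 528 TPM) and desmin, Des (484, 511 and 487 TPM), differed by 1.04-fold and 1.06-fold.

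Id genes are direct targets of BMP-Smad signalling in many cells, and a list of 6 other such targets was low beside them. Smad7 had a mean of 17.9 ± 1.66 TPM (SD, n = 3), Smad6, Msx1, Msx2 and Smad9 lay between 1.74 and 5.62 TPM, and Bambi was at 0.888 TPM. Of the 6, only Msx2 (1.86, 1.85 and 1.51 TPM in lines 66, 67 and 72) had the order of the Ids, highest in line 66 and lowest in line 72. Smad6 and Smad9 were also lowest in line 72 but highest in line 67. Smad7 (18.4, 16.0 and 19.2 TPM), Msx1 (2.93, 1.63 and 2.52 TPM) and Bambi (0.867, 0.781 and 1.02 TPM) were lowest in line 67.

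Genes with a profile over the lines most like that of a member were found among 3288 genes that averaged 50 TPM or more, by the distance between log2(TPM + 1) values centred over the 3 lines. With 3 points and 1 library each, such likeness is a description. Nearest to Myog were Myl4, an embryonic myosin light chain (167, 226 and 313 TPM, distance 0.02), Itm2a (distance 0.07) and the growth factor Igf2 (distance 0.07), and 7 genes lay within 0.1. Nearest to Myod1 were the muscle enolase gene Eno3 (591, 526 and 434 TPM), Tmem64 and Ftl1, with 30 genes within 0.1. Tcf12 had 223 genes within 0.1, led by Mrps35, Usp14 and Dcun1d1, and Id3 had 45, led by Lta4h, Rpl41 and Mrpl54.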

How the data were processed

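RNA-seq libraries (poly-A enriched, stranded) of 3 edited myoblast lines were used. The authors deposited, per transcript, an estimated count, with no normalization, and TPM, in which that count is taken per effective length and scaled to a fixed total. The submitters' processing notes name bcl2fastq 2.20, fastp 0.20, kallisto 0.46.1 and GRCm39. The annotation release and the strand setting are not given in the sources used here. Effective lengths differed between libraries and could exceed a transcript's length, so TPM levels of different genes, and their order, depend on that length model.

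Transcript identifiers were matched to GENCODE M21 (GRCm38). Of 121798, 1112 had no match and were left out (0.493% to 0.535% of counts). TPM and estimated counts were summed per gene. The members and lists were chosen with earlier results of these data known, and the named genes are the members, the list genes and the 3 nearest profiles of 4 members. Class ratios of summed TPM were tested with exact sign-flip permutation tests over lines (Benjamini-Hochberg adjusted). Differences between lines were counted over genes that averaged 10 TPM or more. For alternatives, edgeR 4.0.16 gave TMM factors and DESeq2 1.42.0 size factors, on estimated counts rounded to whole numbers, without a count test. The fold rule between lines and the chromosome medians were checked on simulated counts, and the sign-flip test on short made-up series, with Python 3.11.15. The other steps were not simulated. A count of 0 allows up to 3 counts, between 0.0409 and 0.0448 CPM here; intervals cover counting error only. CPM, pseudocounts, coding transcripts and leaving out each line were tried as alternatives.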

Additional observations from a re-analysis of the deposited data

How the results depend on the processing

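No paired analysis was possible because all 3 libraries belong to a single group. When 1 line was omitted at a time, the log2 ratio of activators to partners lay between 1.83 and 1.91, of inhibitors to partners between 1.55 and 1.83, and of inhibitors to activators between -0.28 and -0.08, the last for lines 66 and 67. Inhibitors against activators turned to 1.66 with class means of log2 levels and to 0.65 without the highest member of each class, and, in alternatives chosen after seeing the data, to 1.44 without Myod1, to 0.24 with class means of log2 levels without Myf6 and to 2.60 with class means without Myod1. Activators against partners turned to -0.83 with class means without Myod1. Inhibitors against activators was -0.16 without Myf6, -0.38 with counts per annotated length and -0.28 with coding transcripts only. Under CPM, counts scaled to library size but not to length, the 3 ratios were 1.03, 0.00 and -1.03. The count of members over 2-fold apart, 0, became 1 (Myf6) at a minimum of 1 TPM and 1 (Myog) at 1.5-fold.

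Mean levels of 10 members moved by more than their spread in 8 under CPM, in 2 with coding transcripts only (Tcf3 and Id3) and in 0 with a pseudocount of 0.1. Of 6 transcript shares, 3 moved when taken of counts (the intron-keeping shares of Id1, Id2 and Id3). Of the 20 other helix-loop-helix genes, 3 had at most 3 counts in each library, the limit of detection, and transcript levels depend on how reads were split.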
